A study of Mus musculus with 138 samples.

Results

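The 68 clustered histone genes that are transcribed with DNA replication were followed in polyadenylated RNA from mouse embryos at the 2-cell stage. They are the genes of 25900 gene identifiers whose names begin with Hist1h, Hist2h, Hist3h or Hist4h, with pseudogenes left out. By class they comprised 6 genes of the linker histone H1, 19 of H2A, 18 of H2B, 12 of H3 and 13 of H4. On GRCm38, the Hist1 cluster held 55 of them on chromosome 13, the Hist2 cluster 10 on chromosome 3, the Hist3 cluster 2 on chromosome 11, and Hist4h4 stood alone on chromosome 6.

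The study asked what the embryo needs maternal SMARCA5 for, the ATPase of the ISWI family of nucleosome remodellers. In a maternal deletion experiment, Smarca5 +/- embryos, from Smarca5 maternal knockout mothers and wild-type males, were set beside Smarca5 +/+ embryos; the titles of both groups name knockout females, and the labels used here give no Cre driver or strain. In a TrimAway experiment, all embryos were wild type: 1 group had SMARCA5 protein degraded from the zygote on with an antibody to it, 1 was labelled IgG and 1 received no injection, and libraries were made at least 24 hours after injection. TrimAway uses the ubiquitin ligase TRIM21 to destroy a protein that an injected antibody has bound. Each library was 1 well of a plate, and replicate numbers named pools of embryos that the labels call technical replicates. The main fits have no term for the pool and treat each well as independent. Their p-values therefore rest on the spread between wells and do not have pools as the unit of replication.

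Most messenger RNAs end in a poly(A) tail. Replication-dependent histone messages are the exception: in dividing cells they end just after a short stem-loop, which is bound by the stem-loop binding protein SLBP and cut with the help of the U7 small nuclear ribonucleoprotein, and they are made in S phase and degraded when it ends. A polyadenylated form can be made when a gene is also cut at a downstream poly(A) signal. Oocytes and early embryos are known to store histone messages and proteins for the first cell cycles. A poly(A)-based library therefore reads these 68 genes only as far as their RNA carries, or is captured as if it carried, an A-rich end, and low counts here do not measure the total histone RNA of the embryo. In such bulk libraries, fewer RNA molecules and poorer capture of the same molecules cannot be told apart.

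The stem-loop that marks this family was read from GENCODE M21 transcripts of the same build. The sequences below are shown because they end the family's normal message. They come from leading detected genes of H1, H2B, H3 and H4 in which a stem-loop was found. Hist1h3b, a gene with 0 counts in every kept library, is shown with them. Hist1h2bc, the H2B gene detected in the most libraries, is not shown, since no stem-loop was found in its annotated transcripts. Each runs 5′ to 3′ on the gene's own strand, with the 16 bases of the stem-loop in capitals.
Hist1h1c (H1, chr13:23739507-23739532, + strand): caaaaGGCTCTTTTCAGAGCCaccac
Hist3h2ba (H2B, chr11:58949344-58949369, + strand): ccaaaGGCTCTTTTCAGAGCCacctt
Hist1h2bj (H2B, chr13:22043633-22043658, + strand): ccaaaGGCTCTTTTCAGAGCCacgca
Hist2h3c1 (H3, chr3:96247322-96247347, + strand): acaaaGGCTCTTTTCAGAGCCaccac
Hist1h3b (H3, chr13:23752815-23752840, + strand): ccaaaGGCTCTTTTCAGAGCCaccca
Hist1h4i (H4, chr13:22040961-22040986, - strand): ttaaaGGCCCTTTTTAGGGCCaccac
Hist1h4c (H4, chr13:23698084-23698109, - strand): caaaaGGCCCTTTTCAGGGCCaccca
Hist4h4 (H4, chr6:136803993-136804018, - strand): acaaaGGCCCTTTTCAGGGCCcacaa
The form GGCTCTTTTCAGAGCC stood in 26 of the 68 genes, in H1, H2A, H2B and H3 alike. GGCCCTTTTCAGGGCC stood in 7, all of them H4 genes. In all, 46 of the 68 genes held a stem-loop in an annotated transcript, against 68 of 21901 protein-coding genes, or 0.310%. The sequence of the stem-loop did not separate detected from undetected genes in this set: Hist1h3b, with 0 counts, and Hist3h2ba, among the 3 most often detected, share the same 16 bases.

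After wells with under 100000 counts were left out, 116 of 135 embryo libraries remained: 22 wild type (109007 to 12004992 total counts, median 545264), 28 maternal deletion (264566 to 8391480, median 1618486), 31 anti-SMARCA5 (761491 to 4009610, median 1481635), 20 IgG (236128 to 4139661, median 1708008) and 15 uninjected (365597 to 2351642, median 1460667). All IgG libraries of replicate 2 fell below the minimum. The 3 wells without an embryo held 453 to 1875 counts and none on the 68 genes, and no gene of the 68 had more than 3 counts in any of the 19 embryo wells left out. Smarca5 itself fell by 2.06 on the log2 scale in the maternal deletion (SE 0.31, adjusted p = 2.63e-07, edgeR's quasi-likelihood test). In replicate 2, 3 libraries stood apart from their label, by genes other than histones. The library labelled maternal deletion in well A04 had 349 counts per 1000000 counts of the library (CPM) of Smarca5, above the 2.99 to 263 CPM of the other 27, and 24.5 CPM of the oocyte gene Gdf9, below their 881 to 26736 CPM. The libraries labelled wild type in wells G05 and H05 had 645 and 350 CPM of Gdf9, above the 0 to 257 CPM of the other 20. Trim21 RNA was at 0 in all 10 IgG libraries of replicate 1, at 0 to 1513 CPM in those of replicate 3, and at 0 to 6125 CPM in the anti-SMARCA5 libraries. The calls of the 68 genes between maternal deletion and wild type are also given without wells A04, G05 and H05, as are some single values. Other results keep these wells under their labels.

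The 68 genes together took 12665 of 239940679 counts, or 0.00528%. Their share was 0.00284% in wild type, 0.00706% in the maternal deletion, 0.00556% after anti-SMARCA5, 0.00568% after IgG and 0.00319% without injection. Of the 7888 values that 68 genes have in 116 libraries, 84.6% were 0. A gene was called detected in a library when it had more than 3 counts there, and 524 values (6.64%) passed. The low values were uneven in parity, with 454 values of 1 count, 46 of 2, 188 of 3 and 18 of 4, and the reason for it is not given in the sources used here. Counting error worked out from such values as single reads can therefore be too small.

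Of the 68 genes, 43 (63.2%) were detected in at least 1 library, and the median gene was detected in 2. For all 25900 genes, 82.8% were detected in at least 1 library and the median gene in 29. Only Hist1h2bc passed in over 50% of the libraries, while 38.8% of all genes did. The 12 genes listed for comparison as replication-independent histone genes, among them H3f3a and H2afz, were all detected, with a median of 110.5 libraries. They were listed as genes with polyadenylated messages, which was not checked here gene by gene. Of the genes not detected, 3, namely the H3 gene Hist1h3b and the H2B genes Hist1h2br and Hist1h2bn, had 0 counts in all 116 libraries, and 22 more never exceeded 3 counts.

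The classes were detected unevenly. H3 had the broadest representation, with 11 of 12 genes detected in at least 1 library, and H1 had 5 of 6. H2B followed with 11 of 18 and H4 with 8 of 13. H2A had the lowest share, 8 of 19. Counted by single values, H4 (9.81% of values) and H1 (9.77%) led, then H2B (8.52%) and H3 (5.68%), with H2A at 2.31%. At least 1 H2B gene was detected in 89 of the 116 libraries (76.7%) and at least 1 H4 gene in 83 (71.6%), against 56 for H3, 55 for H1 and 41 for H2A. H2A and H2B proteins pair in the nucleosome in equal number, and the values here are of captured RNA, not protein. The classes are of unequal size and their genes share libraries and sequence, so these shares are descriptions. Every H2A gene also overlaps another annotated gene, and the part of this in the low H2A share was not tested.

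By cluster, 32 of the 55 Hist1 genes, 8 of the 10 Hist2 genes, both Hist3 genes and Hist4h4 were detected in at least 1 library. Of their values, 5.41% passed in Hist1, 6.64% in Hist2, 31.5% in Hist3 and 25% for Hist4h4. The small clusters thus held a larger share of detected values than the main cluster, and the Hist3 share rests on only 2 genes.

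**Figure D1:**
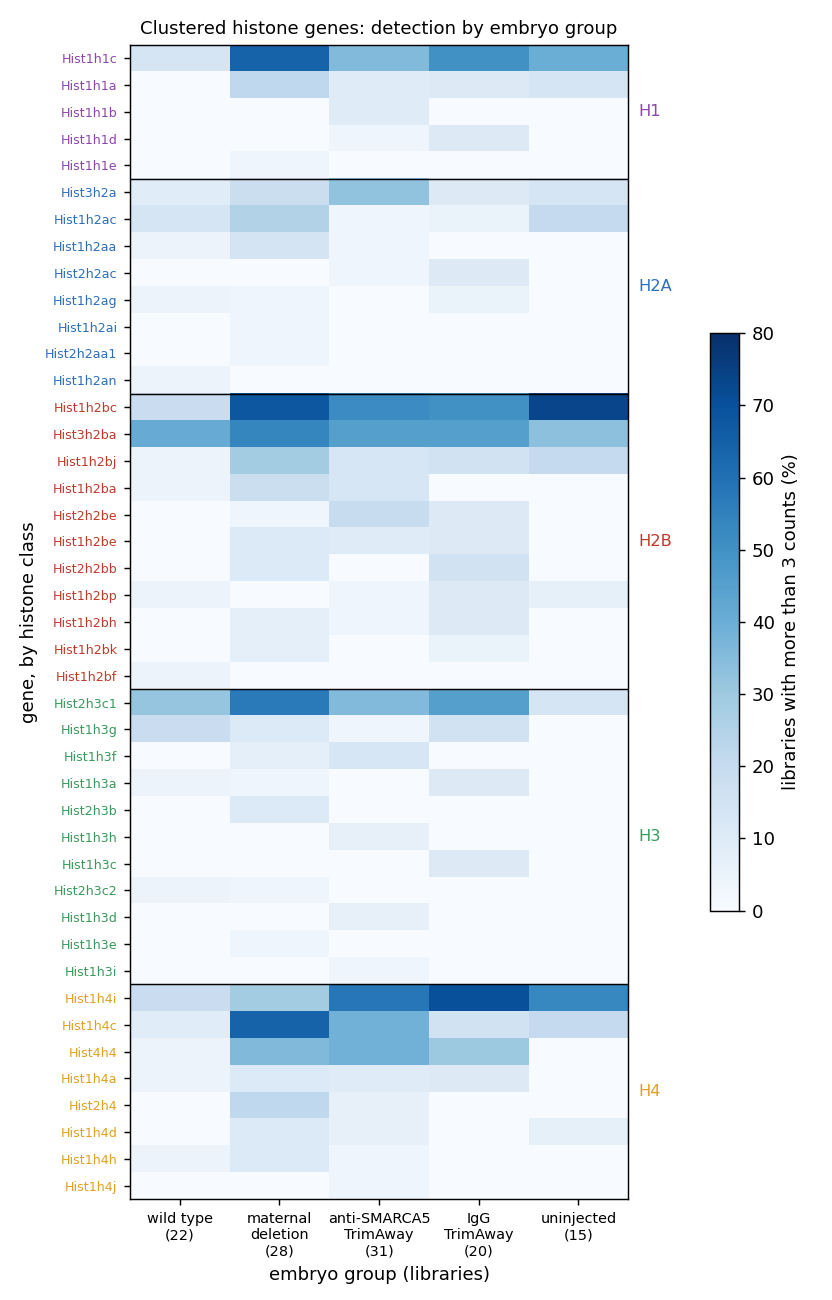
Share of libraries with more than 3 counts (colour, in percent) for each of the 43 genes detected at least once, by histone class (y axis) and embryo group (x axis, with the number of libraries). A few genes carry each class: Hist1h1c in H1, Hist1h2bc and Hist3h2ba in H2B, Hist2h3c1 in H3 and Hist1h4i and Hist1h4c in H4, while most other genes were detected in few libraries of any group.

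Among linker histone genes, Hist1h1c, which encodes H1.2, was detected in 48 libraries. Its lowest value was 0 in every group. Its median and highest values were 0 and 26.1 CPM in wild type, 6.29 and 32.3 CPM in the maternal deletion, 1.85 and 31.2 CPM after anti-SMARCA5, 2.24 and 74.7 CPM after IgG, and 1.89 and 26.7 CPM without injection. It passed in 3 of 22, 18 of 28, 11 of 31, 10 of 20 and 6 of 15 libraries, so the maternal deletion had the highest share, and the ranges of all groups overlapped. Hist1h1a (H1.1) was detected in 13 libraries, with a highest value of 19.0 CPM. Hist1h1b (H1.5) was detected in 3, all of them anti-SMARCA5 libraries, and had 0 counts in all 50 libraries of the maternal deletion experiment.

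The H2A genes were sparse. Hist3h2a was detected in 21 libraries, 10 of them anti-SMARCA5, and its group median was 0 in all 5 groups. Its highest values lay in the IgG library of well A10 in replicate 1 (116 counts, 67.9 CPM) and in the doubtful maternal deletion library of well A04 (129 counts, 41.1 CPM), where the next highest of that group was 7.17 CPM. Hist1h2ac was detected in 15 libraries, with up to 23.3 CPM in wild type. Hist1h2aa, the H2A variant first known from testis, was detected in 6 libraries, 4 of them maternal deletion, with up to 16.9 CPM.

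The most often detected gene of the family was Hist1h2bc, an H2B gene, with more than 3 counts in 60 libraries. Its lowest value was 0 in every group. Its median and highest values were 0 and 32.6 CPM in wild type, 12.2 and 34.5 CPM in the maternal deletion, 5.55 and 104 CPM after anti-SMARCA5, 2.35 and 151 CPM after IgG, and 3.40 and 35.1 CPM without injection. It passed in 4 of 22 wild-type and 19 of 28 maternal deletion libraries, and in 16 of 31, 10 of 20 and 11 of 15 libraries of the TrimAway groups. The group medians differed, and the ranges of all groups overlapped. The 151 CPM came from 258 counts in the IgG library of well A10, and without it the IgG mean was 3.81 ± 5.30 CPM (SD, n = 19).

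Hist3h2ba, the H2B gene of the small Hist3 cluster, was detected in 52 libraries. It passed in 9 of 22, 15 of 28, 14 of 31, 9 of 20 and 5 of 15 libraries in the same order of groups. Thinned to 500000 counts, it passed in 6 of 13, 8 of 24, 5 of 31, 3 of 19 and 1 of 14, the highest share in wild type. Its group medians lay between 0.902 CPM in wild type and 3.31 CPM in the maternal deletion, with a highest value of 31.6 CPM in the IgG library of well A10. Hist1h2bj was detected in 19 libraries, of which 8 were maternal deletion libraries of replicate 2 and none of replicate 1.

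Of the H3 genes, Hist2h3c1, which encodes H3.2, was detected in 45 libraries. Its median and highest values were 0 and 130 CPM in wild type, 5.69 and 26.5 CPM in the maternal deletion, 0 and 45.9 CPM after anti-SMARCA5, 1.83 and 49.8 CPM after IgG, and 0 and 10.5 CPM without injection. The 130 CPM was 28 counts in 1 shallow library of replicate 1. It passed in 7 of 22, 16 of 28, 11 of 31, 9 of 20 and 2 of 15 libraries, fewest without injection. Hist1h3g was detected in 11 libraries and Hist1h3f in 6.

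The H4 genes Hist1h4i and Hist1h4c were detected in 52 and 38 libraries. Median and highest values of Hist1h4i were 2.35 and 45.9 CPM in wild type, 0 and 46.2 CPM in the maternal deletion, 4.33 and 69.0 CPM after anti-SMARCA5, 3.85 and 42.7 CPM after IgG, and 3.25 and 48.8 CPM without injection. The wild-type maximum was only 5 counts in a shallow library, and the maternal deletion maximum came from the doubtful well A04, with 14.4 CPM next. Hist1h4i passed in 4 of 22, 8 of 28, 18 of 31, 14 of 20 and 8 of 15 libraries. Hist1h4c passed in 2 of 22, 18 of 28, 12 of 31, 3 of 20 and 3 of 15, and its median was 5.83 CPM in the maternal deletion and at most 1.39 CPM in the other groups. Hist1h4c was detected in more libraries than Hist1h4i in the maternal deletion, with 626 and 443 of the 1718 H4 counts. In the TrimAway groups Hist1h4i was detected in more, except in anti-SMARCA5 replicate 3, where Hist1h4i passed in 0 of 7 libraries and Hist1h4c in 4 of 7. Hist4h4 was detected in 29 libraries and in none of the 15 without injection, where its highest value was 3 counts.

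**Figure D2:**
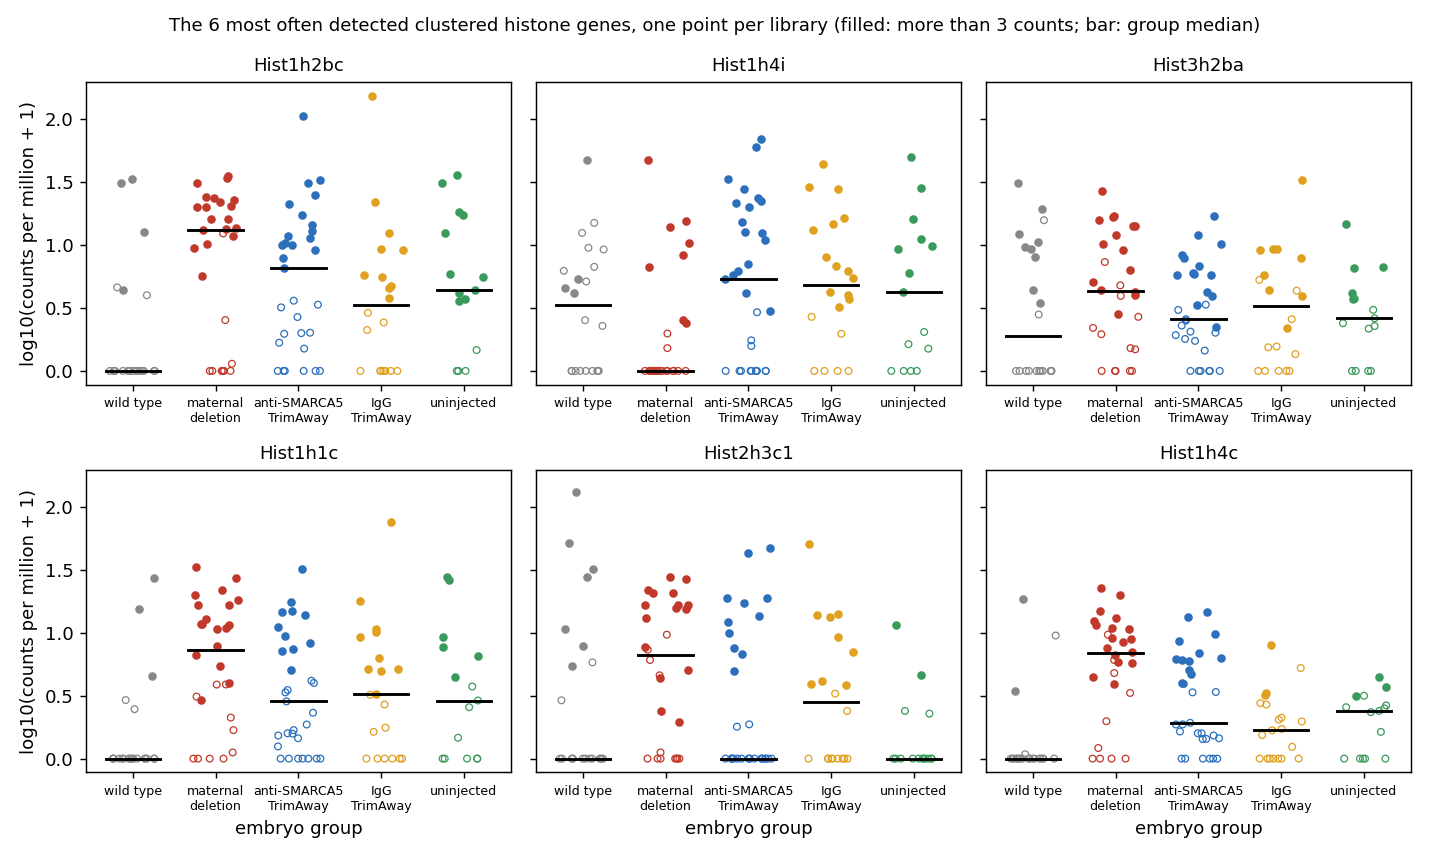
Level of the 6 most often detected genes in every library, as log10(CPM + 1) on the y axis, by embryo group. Filled points have more than 3 counts, open points have 3 or fewer, and bars mark group medians. The points of all groups overlap in each panel, and the Hist1h2bc and Hist1h4c medians of the maternal deletion (12.2 and 5.83 CPM) stand above those of wild type (both 0).

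Per kilobase of annotated exon, the mean level over the 116 libraries was highest for Hist1h4i (10.3 CPM per kb), then Hist1h2bc (8.42) and Hist3h2ba (7.11). Hist2h3c1, Hist1h4c and Hist1h1c followed at 3.91, 3.69 and 3.67 CPM per kb, and Hist1h2bj at 2.47. The order by level therefore differed from the order by libraries detected, since the short H4 gene needs fewer counts for the same level. Neighbours in this order had means that differed by less than the spread between libraries. The annotated exon can be longer than the span that was counted: for Hist1h4c the counted span ended 29 bases after the stem-loop, and its furthest-reaching M21 transcript runs 454 bases past it. Per kilobase of counted span, which includes introns, Hist1h4i (13.9 CPM per kb) was followed by Hist1h4c (7.66), Hist3h2ba (7.02), Hist2h3c1 (3.91) and Hist1h1c (3.67), and the spliced Hist1h2bc had 1.17, so the order of Hist1h4c and Hist1h2bc depends on the length used.

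The position of the annotated 3′ end, by the M21 transcript of each gene that runs furthest past the stem-loop, moved with detection. In M21, 23 genes had a transcript that runs 100 bases or more past the stem-loop, 23 ended within 100 bases of it, and 22 had no stem-loop in an annotated transcript. Of the extended genes, 20 of 23 were detected in at least 1 library, with a median of 6 libraries, and they held 65.2% of the family's counts. Of the genes that end at the stem-loop, 11 of 23 were detected, with a median of 0 libraries, a maximum of 19 (Hist1h2bj) and 8.96% of counts. Of those without a stem-loop, 12 of 22 were detected, with a median of 1 library and 25.8% of counts, 2131 of which came from Hist1h2bc. In H4, all 7 extended genes were detected, with a median of 9 libraries, and 1 of 5 that end at the stem-loop was. In the span that was counted, Hist1h4c ended 29 bases after the stem-loop, and Hist1h4a, Hist1h4d, Hist1h2bh and Hist1h1e ended -2, 25, 4 and 27 bases after it, so these 5 extended genes were counted only as far as the stem-loop or just past it. The other way round, Hist1h2bp (5 libraries) ends 38 bases after the stem-loop in M21, and its counted span runs 1275 bases past it. The limit of 100 bases was set after the data had been seen, and the genes next to it are Hist1h3c with 74 bases (2 libraries) and Hist1h4a with 108 bases (9 libraries).

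**Figure D3:**
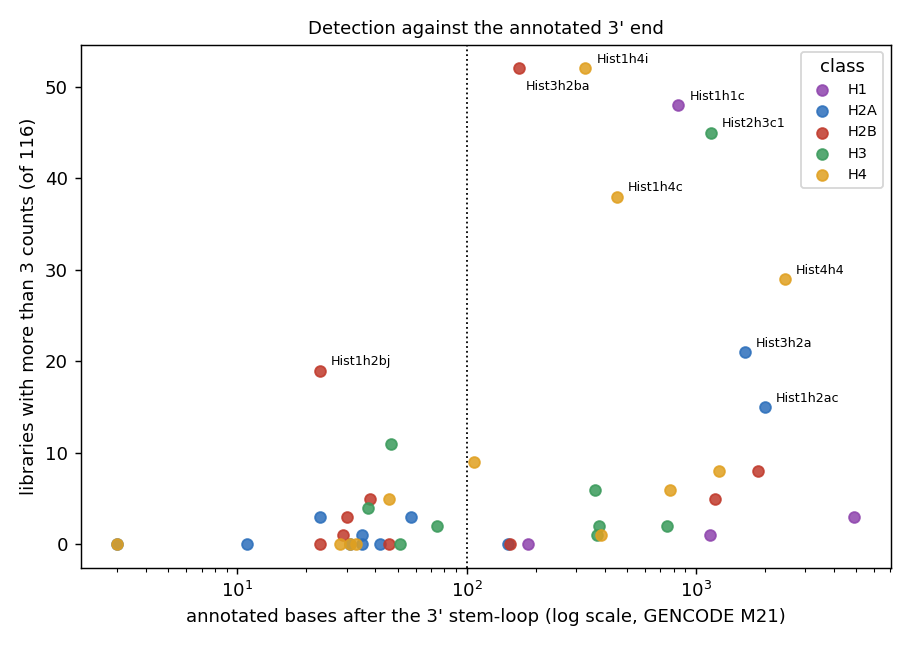
Number of libraries with more than 3 counts (y axis, of 116) against the annotated bases after the 3′ stem-loop (x axis, log scale) for the 46 genes with a stem-loop, coloured by class. The dotted line marks 100 bases. Each gene is placed by the M21 transcript that runs furthest past the stem-loop. Genes with 20 or more detecting libraries all lie to the right of the line, and Hist1h2bj, at 23 bases and 19 libraries, is the highest to its left. Hist1h4c (38 libraries) is placed by its M21 transcript at 454 bases, and its counted span ends at 29.

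The extended genes also differ in other features. Their median exon length was 1249 bases, against 485 bases for genes that end at the stem-loop, and a longer exon gives more reads per molecule. Per kilobase of exon, median levels were 0.220 CPM for extended genes, 0.128 for those that end at the stem-loop and 0.106 for those without one. Per kilobase of counted span they were 0.472, 0.106 and 0.0799 CPM in the same order, so the size of the difference depends on the length used. A poly(A) signal (AATAAA or ATTAAA, on the sense strand) was searched in the last 50 bases of every annotated transcript. At least 1 transcript held it in 12 of the 23 extended genes, in 2 of the 23 that end at the stem-loop and in 3 of the 22 without one. Of 58797 protein-coding transcripts, 50.2% held it, a share per transcript and not per gene. Hist1h4i, Hist3h2ba, Hist1h1c, Hist2h3c1 and Hist4h4 are among the extended genes with the signal, and Hist1h4c and Hist1h2ac among those without it. The relation between the annotated end and detection is given as a description, over genes that share libraries and sequence.

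Near-identical copies limit what can be counted. Of 18 genes with under 25% of their 50-base windows unique to them, 7 were detected and none in more than 3 libraries. Of 13 with 25% to 50% unique windows, 6 were detected, and of 37 with 50% or more, 30 were, with a median of 6 libraries. None of the 18 least unique genes was extended, against 21 of the 37 most unique. How the authors counted reads that match several places is not given in the sources used here. Uniqueness, length and the annotated end moved together over these genes, and their parts in detection were not tested. In all, 24 of the 68 genes, among them every H2A gene, overlap another annotated gene. Without a stated use of strand, their reads cannot be told apart from those of the overlapping gene.

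Many H2A and H2B genes lie head to head and share 1 stretch of promoter. Of the 13 divergent pairs under 1000 bases apart, 12 joined an H2A and an H2B gene and 1 joined Hist1h2bh and Hist1h3f. The pair with the most counts was Hist1h2ac and Hist1h2bc. Between them lie 250 bases, chr13:23683949-23684198 on the + strand of GRCm38.p6, read from the RefSeq promoter windows and shown because both genes start from it. Capitals mark CCAAT (3 on either strand) and TATAAA (1 on either strand).
Stretch between Hist1h2ac and Hist1h2bc: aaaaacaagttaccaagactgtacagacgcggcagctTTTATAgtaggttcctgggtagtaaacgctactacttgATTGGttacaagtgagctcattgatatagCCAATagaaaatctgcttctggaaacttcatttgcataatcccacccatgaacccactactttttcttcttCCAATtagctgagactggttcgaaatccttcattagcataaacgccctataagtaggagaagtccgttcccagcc
Across the family, 63 windows of 300 bases, from 250 before to 50 after a start, were found for 62 genes. CCAAT stood on either strand in 85.7% of them, against 37.4% of all 32851 windows, and TATAAA in 55.6%, against 13.6%. A match is not evidence of binding.

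The partners of a pair were detected in different numbers of libraries. Hist1h2bc passed in 60 libraries and Hist1h2ac in 15, with both in 12 and either in 63. Hist1h2bj passed in 19 and its partner Hist1h2ag in 3, with both in 2. The H2B variant gene Hist1h2ba passed in 10 libraries and its H2A partner Hist1h2aa in 6, with both in 3. Hist2h2be passed in 9 and Hist2h2ac in 3, with no library in common. These pairs were singled out after their values had been seen. Over all 12 such pairs, the H2B gene was detected in more libraries than its H2A partner in 7, the H2A gene in 1 (Hist1h2ai, 1 library), and neither gene was detected in 4. The H2A partner overlaps another annotated gene in each of these pairs, and the part of this in the pair counts was not tested.

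More of the 68 genes were detected in deeper libraries. The median was 1 gene in wild type (0 to 10), 6 in the maternal deletion (2 to 19), 4 after anti-SMARCA5 (2 to 13), 5 after IgG (0 to 12) and 3 without injection (0 to 7). The shallowest group, wild type, had the lowest median. When libraries were thinned at random to 500000 counts, and shallower ones left out, the medians were 1 (13 libraries), 3 (24), 2 (31), 1 (19) and 1 (14). At 1000000 counts they were 3 (8 libraries), 6 (19), 3 (28), 3 (15) and 2 (9), so the maternal deletion had the highest median at both depths and the other groups stood closer together than before thinning.

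Summed over the 68 genes, the level had medians of 26.1 CPM in wild type (0 to 200), 69.3 CPM in the maternal deletion (22.01 to 163), 49.4 CPM after anti-SMARCA5 (8.91 to 136), 32.0 CPM after IgG (8.47 to 427) and 21.95 CPM without injection (3.10 to 136). The ranges overlapped. The maternal deletion median stayed high in both replicates, 75.3 and 65.2 CPM, against 45.1 and 24.1 CPM in wild type. In the TrimAway groups the replicates differed as much as the groups did: the anti-SMARCA5 medians were 62.7, 49.4 and 31.5 CPM in replicates 1, 2 and 3, and the uninjected medians 19.4 and 46.7 CPM in replicates 1 and 3. The top of the IgG range was well A10, whose 730 counts were 5.76% of all counts of the family.

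**Figure D4:**
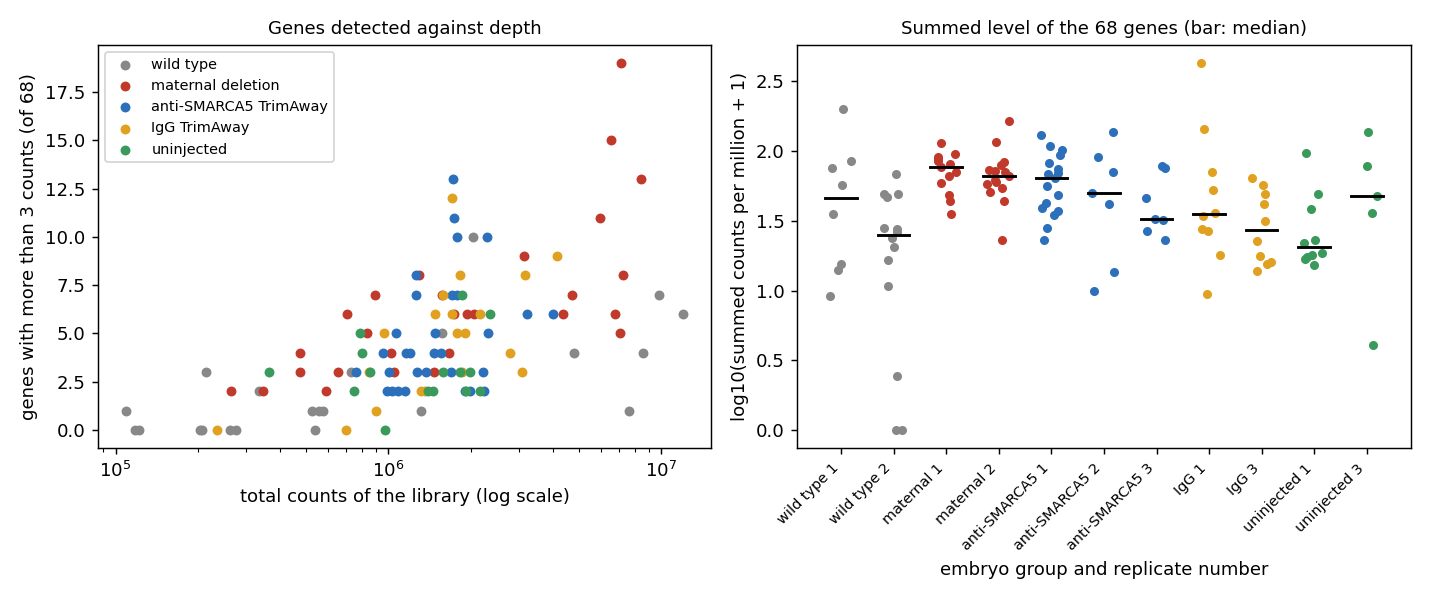
Left, number of the 68 genes with more than 3 counts in each library (y axis) against its total counts (x axis, log scale), coloured by embryo group. Right, summed level of the 68 genes in each library as log10(CPM + 1), by group and replicate number, with bars at the medians. Deeper libraries detect more genes, and the maternal deletion replicates (medians 75.3 and 65.2 CPM) stand above those of wild type (45.1 and 24.1 CPM).

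Which genes were read also differed between replicate numbers. Hist1h4i passed in 15 of 17, 3 of 7 and 0 of 7 anti-SMARCA5 libraries of replicates 1, 2 and 3, in 9 of 10 and 5 of 10 IgG libraries of replicates 1 and 3, and in 6 of 10 and 2 of 5 uninjected libraries. In the maternal deletion it passed in 0 of 13 libraries of replicate 1 and 8 of 15 of replicate 2. Its detection thus moved with the replicate number in both experiments. In the maternal deletion experiment the replicate numbers also differ in depth and lane. All TrimAway libraries share the same lane, per the file headers. Median depth was 1464045, 1559529 and 1481635 counts in anti-SMARCA5 replicates 1, 2 and 3. For replicates 1 and 3 it was 1708008 and 1626314 in IgG, and 1838493 and 798765 in uninjected embryos. The parts of pool and depth, and of lane in the maternal deletion experiment, were not tested. Hist1h4c passed in 8 of 13 and 10 of 15 maternal deletion libraries and in 0 of 8 and 2 of 14 of wild type, so that difference appeared in both replicates. Hist1h1c passed in 7 of 13 and 11 of 15 against 0 of 8 and 3 of 14, and Hist1h2bc in 10 of 13 and 9 of 15 against 2 of 8 and 2 of 14. In replicate 1, other leading genes passed in a lower share of maternal deletion than of wild-type libraries: Hist2h3c1 in 7 of 13 against 5 of 8 and Hist3h2ba in 4 of 13 against 3 of 8. In replicate 1 the median depth was 702651 counts for the maternal deletion and 429979 for wild type, and in replicate 2 it was 4686051 and 650104. Wild-type libraries were the shallower in both, and the part of depth in these counts of libraries is not separated from that of the group. Thinned to 500000 counts, Hist1h2bc passed in 14 of 24 maternal deletion and 2 of 13 wild-type libraries, Hist1h1c in 10 and 3, Hist2h3c1 in 9 and 3, Hist1h4c in 7 and 1, Hist1h4i in 4 and 0, and Hist4h4 in 1 and 0. Hist3h2ba passed in 8 of 24 and 6 of 13, a lower share in the maternal deletion. In these thinned libraries, which leave out the shallower ones, the differences in share detected were smaller for Hist1h1c, Hist2h3c1, Hist1h4c and Hist4h4. That of Hist1h2bc changed less, with 58.3% against 15.4% after thinning. The difference was larger for Hist1h4i and of the other sign for Hist3h2ba. Hist4h4 was near the floor after thinning.

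Tested across all genes with edgeR and a filter on low counts, nearly all of the family stayed below the filter. In the maternal deletion against wild type, 1 of the 68 genes was tested and 0 were called at an adjusted p under 0.05, where 56.6% of all 8518 genes tested were called. Hist1h2bc was that gene. Its difference was 1.67 on the log2 scale (SE 0.79, adjusted p = 0.0672, edgeR, unadjusted p = 0.0400), with values above 3 counts in 19 of 28 maternal deletion libraries. The fit blocked on replicate gave 1.98 (adjusted p = 0.0261), and DESeq2 gave 1.77 (adjusted p = 0.0497), so the call depends on the model. Without replicate 2 it was 0.74 (adjusted p = 0.469), and without the 3 doubtful wells 1.54 (adjusted p = 0.102).

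Without the filter, 44 of the 68 genes could be tested in that comparison and 16 (36.4%) were called, 14 higher and 2 lower, where 49.6% of all genes tested were called and 31.8% were called higher. The share in the family is below that of all genes. The median difference over the 44 genes was 0.98, against 0.64 over all genes tested. Of the 16 calls, 6 were of genes detected in at most 1 library of the 2 groups. The calls with the most libraries were Hist1h1c, Hist1h4c, Hist4h4 and Hist1h2bj. Hist1h1c was higher by 1.90 (SE 0.79, adjusted p = 0.0401, edgeR), with 18 of 28 against 3 of 22 libraries detected. Hist1h4c was higher by 2.18 (SE 0.81, adjusted p = 0.0209), with 18 of 28 against 2 of 22. Hist4h4 was higher by 2.82 (SE 0.95, adjusted p = 0.0109), with 10 of 28 against 1 of 22. Hist1h2bj was higher by 3.90 (SE 0.997, adjusted p = 0.00101), with 8 of 28 against 1 of 22, all 8 in replicate 2. Genes of all 5 classes were among those called higher, and their 14 of 44 is the same share, 31.8%, as over all genes tested. With the replicate block, 18 of the 44 were called, 16 of them higher, where 48.7% of all genes were called and 31.8% were called higher, and these 4 genes were among them.

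The remaining calls were thinner. Hist2h4 had 117 counts in the maternal deletion, with 6 libraries above 3 counts, and none in wild type. Hist1h4d had 109 counts there, with 3 libraries above 3 counts, and none in wild type. Hist1h2ba, the testis-type H2B gene, had 95 counts in the maternal deletion and 6 in wild type. Hist2h2be had 172 counts, 171 of them in 1 library, so its call describes that embryo. The 2 genes called lower, Hist1h2an and Hist1h2bf, each had 9 counts in 1 wild-type library and 0 elsewhere in the comparison. Without the 3 doubtful wells, 17 of 42 genes were called, 15 higher and 2 lower, where 53.6% of all genes were called.

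Marker genes of the oocyte, of cumulus and granulosa cells and of the 2-cell stage also differed in this contrast. The summed level of 7 oocyte genes had a median of 1330 CPM in wild type (211 to 4111) and 8496 CPM in the maternal deletion (565 to 30189), and all 7 were detected in both. The lowest maternal deletion value was that of the doubtful well A04, and the other 27 libraries ran from 3260 to 30189 CPM. The summed level of 7 cumulus and granulosa cell genes had medians of 0 (0 to 2.94) and 5.21 CPM (0 to 71.6), with 1 and 6 of 7 detected in at least 1 library. The summed level of 5 genes of the 2-cell stage had medians of 495 CPM (278 to 1074) and 78.6 CPM (0 to 1632). Their part in the histone differences was not tested.

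In the TrimAway experiment, 2 of the 68 genes were tested in each of the anti-SMARCA5 comparisons. In edgeR, 0 were called and 0 had an unadjusted p under 0.05. DESeq2 also called 0, with 1 gene, Hist1h2bc against IgG, at an unadjusted p under 0.05. Over all genes tested, 3.03% were called against IgG and 27.9% against uninjected embryos. The Hist1h2bc difference from IgG was -0.21 on the log2 scale (SE 0.70, adjusted p = 0.861, edgeR). Its direction turned with DESeq2, to 1.54 (unadjusted p = 0.0157, adjusted p = 0.0881). It also turned in edgeR without the IgG library of well A10, to 1.52 (adjusted p = 0.131). Hist1h4i differed from IgG by 0.19 (SE 0.61, adjusted p = 0.858) and by -0.70 with the replicate block. Against uninjected embryos, with which anti-SMARCA5 is compared a second time, the differences were 0.75 (SE 0.70, adjusted p = 0.415) for Hist1h2bc and 0.68 (SE 0.72, adjusted p = 0.483) for Hist1h4i. The 4 standard errors lay between 0.61 and 0.72, and a p that misses the threshold does not show that the groups are alike. Between IgG and uninjected embryos no gene of the family passed the filter, and 0% of all 9915 genes tested were called by edgeR, with 1440 at an unadjusted p under 0.05 and 207 called by DESeq2.

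Without the filter, 5 of 60 genes (8.33%) were called between anti-SMARCA5 and IgG, 3 higher and 2 lower, where 13.5% of all genes were called and 10.3% were called higher. None of the 5 was detected in more than 4 libraries of these groups. Without the IgG library of well A10, 6 were called, all higher, where 16.9% of all genes were called and 13.4% were called higher. The Hist1h2bp difference moved from -3.14 to -0.72 (adjusted p = 0.461, edgeR), and that of Hist3h2a from -0.79 to 2.74 (adjusted p = 0.0157). With the replicate block 7 were called, 4 higher and 3 lower, where 20.2% of all genes were called. Against uninjected embryos, 9 of 57 (15.8%) were called, 8 of them higher, where 27.9% of all genes were called and 22.2% were called higher. Hist4h4 was higher by 2.97 (SE 0.88, adjusted p = 0.0103, edgeR), with 12 of 31 against 0 of 15 libraries detected and 148 against 12 counts. Hist2h3c1 was higher by 2.99 (SE 1.03, adjusted p = 0.0262), with 11 of 31 against 2 of 15, but by 2.40 with the replicate block (adjusted p = 0.0528). Hist2h2be was higher by 3.47 (SE 1.04, adjusted p = 0.0107), with 6 of 31 against 0 of 15, and Hist1h1b by 2.88 (SE 0.82, adjusted p = 0.00782), with 3 of 31 against 0 of 15. The other 5 were detected in at most 2 libraries, 2 of them in none. Between IgG and uninjected embryos, 2 of 58 genes (3.45%) were called, Hist1h3c and Hist2h2ac, both higher and each detected in 2 IgG libraries, where 4.2% of all genes were called and 3.36% were called higher. With the replicate block, edgeR called 0 of the 58 and 0 of all genes, with 9 of the 58 and 3148 of all genes at an unadjusted p under 0.05.

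The RNAs of the factors that make and process histone messages were, unlike the histone messages, well covered. All 24 listed factors were detected in over 50% of the libraries. Slbp, the stem-loop binding protein, was detected in all 116, with medians and ranges of 266 CPM (125 to 572) in wild type, 383 CPM (83.7 to 3007) in the maternal deletion, 259 CPM (20.9 to 393) after anti-SMARCA5, 227 CPM (107 to 402) after IgG and 278 CPM (133 to 495) without injection. It rose by 1.27 in the maternal deletion (SE 0.35, adjusted p = 0.00179, edgeR), with overlapping ranges, and kept the direction without replicate 2, at 1.14 (adjusted p = 0.0823). In the TrimAway comparisons its differences were 0.11, 0.15 and 0.05 (adjusted p = 0.702, 0.527 and 0.919), and the signs of all 3 turned in at least 1 alternative.

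In the maternal deletion, 12 of 23 factors tested were called, 3 higher and 9 lower, where 56.6% of all genes tested were called, with a median difference of -0.65 against 0.18 for all genes tested. Lsm1, of the ring that leads to decapping, rose by 1.17 (SE 0.27), from a median of 77.8 to 188 CPM. The largest fall was that of Cstf2t, a cleavage stimulation factor, by 3.05 (SE 0.52), from a median of 178 CPM in wild type to 10.8 CPM. Cdk2, whose kinase acts on NPAT, fell by 2.34 (median 146 to 7.21 CPM). Ncbp1 and Ncbp2, the nuclear cap-binding pair, fell by 2.33 (236 to 8.30 CPM) and 1.66 (286 to 55.1 CPM). Coil, which encodes coilin of Cajal bodies, fell by 2.04, Eri1, a 3′ exonuclease that acts on the histone stem-loop, by 1.91, and Srrt, a partner of the cap-binding complex, by 1.71. Eri1 was not called without replicate 2 (-0.44, adjusted p = 0.633), nor Srrt without replicate 1 (-1.52). Npat, the coactivator of histone gene transcription, had a median of 263 CPM in wild type and 73.4 CPM in the maternal deletion. The share of factors called is close to that of all genes.

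After anti-SMARCA5, 1 of 24 factors was called against IgG: Cstf2t fell by 1.11 (SE 0.30, adjusted p = 0.0358, edgeR), from a median of 166 to 65.3 CPM. With the replicate block, 6 were called, 1 higher (Lsm11) and 5 lower, among them Cstf2t at -1.75, where 25.8% of all genes were called in place of 3.03%. Against uninjected embryos 5 of 24 were called, where 27.9% of all genes were called. All 5 were higher in this fit, but the replicate block called 8, 4 higher and 4 lower, DESeq2 called 5 higher and 2 lower, and scaling by total counts alone called 1, which was lower. They were Lsm11 of the U7 particle (1.20, SE 0.39), Ccne2 (0.92, SE 0.31), Cpsf2 of the cleavage complex (0.87, SE 0.27), Casp8ap2 (FLASH, 0.73, SE 0.27) and Cstf2 (0.69, SE 0.27). Without replicate 1, none of the 24 was called in either comparison. Between IgG and uninjected embryos, edgeR called 0 factors with the filter and 1 without it, Casp8ap2 (0.89, adjusted p = 0.0428), which DESeq2 also called (0.96, adjusted p = 0.0392).

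The genes listed as replication-independent histone genes were set beside the clustered genes for their levels. The summed level of the listed genes had medians of 3619 CPM in wild type, 1651 CPM in the maternal deletion, 1183 CPM after anti-SMARCA5, 1930 CPM after IgG and 2011 CPM without injection, far above the 21.95 to 69.3 CPM medians of the clustered genes. The clustered genes are different genes, so this gap does not measure how well their messages were captured. In the maternal deletion, 7 of 9 listed genes tested were called, where 56.6% of all genes tested were called. H1foo, the linker histone of oocytes, rose by 4.83 (SE 0.60), from a median of 27.0 to 388 CPM, and H1f0 by 1.24 (SE 0.40). H2afv, H3f3a, H2afz, H2afj and Cenpa fell by 2.12, 1.82, 1.76, 1.56 and 1.18. Against uninjected embryos, H2afv, H3f3a and Cenpa fell by 1.34, 0.90 and 0.83 after anti-SMARCA5. Of the 9 listed genes tested there, 3 were called, all lower, where 27.9% of all genes tested were called. In the maternal deletion, the summed medians of the 2 kinds of histone gene therefore stood in opposite order to wild type, higher for the clustered genes and lower for the replication-independent ones.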

How the data were processed

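Polyadenylated RNA was measured in 138 wells by the scNMT-seq protocol with Nextera XT libraries, per the labels' protocols. The authors deposited 2 tables of raw read counts per gene, 1 per experiment. Trim Galore 0.6.5, cutadapt 2.3, HISAT2 2.1.0 and GRCm38 are named in the submitters' processing notes. The annotation release, strand, multi-mapping reads and duplicates are not given in the sources used here. Lines with the same identifier were summed (25965 lines, 57 repeated identifiers, 25900 genes). Libraries with at least 100000 counts were kept.

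The groups of each comparison were fitted on their own in edgeR 4.0.16 (R 4.3.3, TMM, filterByExpr, robust quasi-likelihood test, no block, Benjamini-Hochberg over all genes tested, called below 0.05). The standard error is the log2 difference divided by the square root of F. DESeq2 1.42.0, the replicate block, no filter, no TMM and other depth limits were alternatives. The fits were tested on simulated data. Replicate numbers mark pools of embryos, per the labels. Same-numbered group means deviated together in the maternal deletion experiment (r = 0.52 across 8518 genes), in anti-SMARCA5 with IgG (0.58) and in IgG with uninjected (0.42), and hardly in anti-SMARCA5 with uninjected (0.073). In the maternal deletion experiment, the numbers fall on different lanes, per the file headers, so pool and lane cannot be told apart.

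CPM are counts per 1000000 of a library's total. Stem-loops were searched on the sense strand of GENCODE M21 transcripts, matched by identifier for 59 genes and by symbol for 9. Genes were named as the 3 most often detected of each class, those called in a comparison, those at 0, and Slbp with up to 8 called factors per comparison; others were chosen after their values were seen. The genes and lists were chosen with earlier results of these data known.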

Additional observations from a re-analysis of the deposited data

How the results depend on the processing

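Without the low-count filter, edgeR called 16 of 44, 5 of 60, 9 of 57 and 2 of 58 genes of the family tested. The comparisons are, in order, the maternal deletion, anti-SMARCA5 against IgG, anti-SMARCA5 against uninjected and IgG against uninjected, where the filtered fits called 0. Of all genes tested without the filter, 49.6%, 13.5%, 27.9% and 4.2% were called. Without the filter but with the replicate block, an alternative added after seeing the data, 18, 7, 9 and 0 were called; all genes called numbered 10220, 4516, 6160 and 0. Without the filter, 17 were called without wells A04, G05 and H05, and 6 (anti-SMARCA5 against IgG) and 1 (IgG against uninjected) without well A10. In these 3 fits, 53.6%, 16.9% and 1.29% of all genes tested were called. With the filter, DESeq2 and the replicate block each called 1, Hist1h2bc in the maternal deletion. Against IgG, the Hist1h2bc difference was 1.54 with DESeq2, -0.71 to 1.57 when a replicate was left out (1.57 without replicate 1), 1.52 without well A10 and 1.48 without that well and the filter. That of Hist1h4i was -0.70 with the replicate block (-0.72 also without the filter) and -0.17 (without replicate 3) to 0.41 when a replicate was left out. Slbp ranged from -0.058 to 0.16 against IgG when a replicate was left out (-0.058 without replicate 1), turned to -0.23 against uninjected without TMM, and, between IgG and uninjected, to -0.24 without TMM, -0.032 with a minimum of 10000 counts, and -0.0077 and -0.0042 without well A10, with and without the filter. Factors called between anti-SMARCA5 and IgG numbered 6 with the replicate block (1 higher and 5 lower), with or without the filter, 0 without TMM, 0 with a minimum of 500000 counts, 0 to 1 when a replicate was left out and 2 without well A10, with or without the filter. Against uninjected they numbered 8 with the replicate block (4 higher and 4 lower; 7 also without the filter), 1 without TMM, 3 with a minimum of 500000 counts and 0 to 4 when a replicate was left out. Between IgG and uninjected, DESeq2 called 1 and the fit without the filter 1. The causes were not tested.

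Over all genes, the maternal deletion gave 4825 calls, 10416 without the filter (11208 also without the 3 wells) and 2801 without replicate 2. Anti-SMARCA5 against IgG gave 317 calls, 1029 with DESeq2, 2691 with the replicate block, 3010 without the filter (3757 also without well A10), 64 without TMM, 150 and 795 with minimums of 500000 and 10000 counts, 0 to 591 when a replicate was left out and 665 without well A10. Against uninjected, 2999 became 6184 without the filter and 1 without replicate 1. Between IgG and uninjected, 0 became 207 with DESeq2, 881 without the filter (266 also without well A10) and 1 without replicate 3. Without TMM, the split of 1885 higher and 1114 lower against uninjected became 409 and 1874, and that of 181 and 136 against IgG became 17 and 47; the median difference of all genes moved from 0.13 to -0.29, from 0.04 to -0.10, from 0.03 to -0.23 between IgG and uninjected and from 0.18 to -0.04 in the maternal deletion.

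The median number of genes detected per library became 12, 13 and 10 after anti-SMARCA5, after IgG and without injection when 1 count sufficed. Thinned to 100000 counts it was 0 in the maternal deletion and all 3 TrimAway groups, and at 500000 counts it was 1 after IgG and without injection. Depth therefore limits which of these genes can be seen at all. Among the filtered fits, which tested 1, 2, 2 and 0 of the 68 genes, the replicate block changed no other call of these genes.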
